A study of Mus musculus with 6 samples.

Results

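The genes of MHC class I presentation were examined in tdTomato+ cells sorted from bone marrow stromal cell (BMSC) cultures. The set held 9 of the 17469 genes measured. They were the heavy chain genes H2-K1, H2-D1, H2-T23 and H2-Q7, the light chain gene B2m, the peptide transporter genes Tap1 and Tap2, the loading factor gene Tapbp and the regulator gene Nlrc5. The set was chosen by role and with the genotype difference in these libraries known, so the values of its members are given as a description without a test. RNA was sequenced from 3 libraries of OCN-Cre;Ai9 mice (control) and 3 of TgAPPsweOCN;Ai9 mice, all untreated and 6 months old. Both genotypes carried OCN-Cre, which places Cre under the osteocalcin promoter, and Ai9, a CAG promoter-driven tdTomato reporter that Cre switches on. TgAPPsweOCN;Ai9 mice carried in addition human APPswe (amyloid precursor protein bearing the Swedish mutation) behind a CAG promoter and a stop cassette that Cre removes. All lines were on a C57BL/6 background per the methods, and the sort kept any adherent cell in which Cre had acted. A legend in the study counts mice as replicates without saying whether this covers the libraries, and the sources used here do not otherwise tie a library to a mouse, so the spread between libraries may be technical, and the p-values below measure only that spread.

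MHC class I molecules carry peptides made inside a cell to its surface, where CD8 T cells and natural killer cells read them. Peptides are cut by the proteasome in the cytosol, moved into the endoplasmic reticulum by the TAP transporter, and loaded with the help of tapasin onto a heavy chain paired with beta-2-microglobulin. Interferons raise the transcription of most of these genes, and NLRC5 is the main transactivator of their promoters. Classical heavy chains (H2-K1 and H2-D1) present many peptides, and the nonclassical ones of the Q, T and M regions have narrower roles.

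The values were the authors' estimated counts and FPKM (fragments scaled by transcript length and by all mapped fragments of the library). Estimated counts summed to between 19340810 and 22037840 per library, and the 3 counts taken as the smallest detectable amount equalled 0.136 to 0.155 CPM (counts scaled to the library's sum), a limit from counting error alone. Of the 12701 genes tested with edgeR, 8.9% (1130) were up-regulated and 9.2% (1169) down-regulated in TgAPPsweOCN;Ai9 cells, at an adjusted p of at most 0.05 and a change of at least 1 on the log2 scale. With scaling to library totals in place of TMM factors these numbers were 846 and 1732, because that scaling moved the median log2 fold change of all genes from -0.02 to -0.23. At an adjusted p of at most 0.05 and any fold, 32.5% rose and 31.5% fell. The App gene, for which the table has a single entry, had 274.95 to 281.1 FPKM in control and 325.21 to 332.86 FPKM in TgAPPsweOCN;Ai9 libraries. The cells are called osteoblast progenitors in the study, but myeloid markers were far more abundant in them than stromal and osteoblast ones. The 15 myeloid markers summed to 17901 to 18647 FPKM in control and 14833 to 18616 FPKM in TgAPPsweOCN;Ai9 libraries, and Lyz2 was the largest single part of that sum. The myeloid markers did not move together, since 5 were up-regulated, among them Aif1 (2.04 on the log2 scale, adjusted p = 4.29e-06) and Adgre1 (1.89, adjusted p = 4.90e-06), and 5 were down-regulated, among them Mrc1 (-2.38, adjusted p = 1.53e-06) and Csf1r (-1.49, adjusted p = 1.21e-06). These changes went with the class I and class II differences below, and their part in them was not tested. The 15 stromal and osteoblast markers summed to 211.65 to 252.6 FPKM and 159.41 to 232.14 FPKM. In bulk RNA, a change in the number of cells that express a gene cannot be told apart from a change in RNA per cell.

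B2m lies on chromosome 2 (chr2:122147687-122153082, GRCm38.p6, RefSeq). Nlrc5 lies on chromosome 8 (chr8:94434335-94527272), and the other members lie in the MHC on chromosome 17. There H2-K1 spans chr17:33996012-34000619, Tapbp chr17:33919478-33929290, Tap1 chr17:34187556-34197225 and Tap2 chr17:34204479-34216321. H2-D1 spans chr17:35263094-35267497, H2-Q7 chr17:35439140-35443773 and H2-T23 chr17:36029977-36032701. Promoter sequence was available for 7 of the 9 members, and Tap2 and Nlrc5 had no entry. The 250 bases before the start in the first RefSeq promoter entry of each gene are shown for the 4 heavy chain members and B2m, the genes of the class I molecule itself, so that their upstream sequences can be set side by side. Capitals mark matches on either strand to 4 motifs. The core of an interferon response element was searched as GAANNGAAA and an NF-kB core as GGGATTCC. A cyclic AMP response half-site was searched as TGACG. The remaining motif, known by its letters, was the CCAAT box. Sequences run 5′ to 3′ on the strand of the gene. The H2-K1 window is chr17:34000348-34000597 (minus strand), the H2-D1 window chr17:35262844-35263093 (plus), the H2-Q7 window chr17:35438905-35439154 (plus), the H2-T23 window chr17:36032702-36032951 (minus) and the B2m window chr2:122147437-122147686 (plus), all in GRCm38.p6. The RefSeq gene spans given above also take in more distant starts of H2-K1 and H2-Q7, so the H2-K1 window lies inside its gene span and the H2-Q7 window reaches into its own.
H2-K1: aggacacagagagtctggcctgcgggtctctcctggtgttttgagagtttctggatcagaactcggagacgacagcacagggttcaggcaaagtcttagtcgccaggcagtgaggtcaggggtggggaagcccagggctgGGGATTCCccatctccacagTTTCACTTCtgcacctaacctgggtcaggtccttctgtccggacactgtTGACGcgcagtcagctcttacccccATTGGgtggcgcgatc
H2-D1: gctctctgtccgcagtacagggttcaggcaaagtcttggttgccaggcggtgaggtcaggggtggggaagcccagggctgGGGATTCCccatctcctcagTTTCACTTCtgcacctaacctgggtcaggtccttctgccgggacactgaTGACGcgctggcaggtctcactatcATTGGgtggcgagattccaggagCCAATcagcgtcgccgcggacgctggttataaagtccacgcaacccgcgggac
H2-Q7: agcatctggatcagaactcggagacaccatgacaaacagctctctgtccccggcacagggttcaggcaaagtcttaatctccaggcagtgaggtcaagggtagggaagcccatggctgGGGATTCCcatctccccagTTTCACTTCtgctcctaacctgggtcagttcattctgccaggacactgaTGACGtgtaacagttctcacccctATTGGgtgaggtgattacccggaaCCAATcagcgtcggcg
H2-T23: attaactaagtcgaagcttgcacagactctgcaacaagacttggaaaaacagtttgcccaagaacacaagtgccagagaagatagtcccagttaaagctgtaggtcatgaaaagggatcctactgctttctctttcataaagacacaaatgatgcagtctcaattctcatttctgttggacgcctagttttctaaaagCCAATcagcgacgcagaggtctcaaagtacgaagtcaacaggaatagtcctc
B2m: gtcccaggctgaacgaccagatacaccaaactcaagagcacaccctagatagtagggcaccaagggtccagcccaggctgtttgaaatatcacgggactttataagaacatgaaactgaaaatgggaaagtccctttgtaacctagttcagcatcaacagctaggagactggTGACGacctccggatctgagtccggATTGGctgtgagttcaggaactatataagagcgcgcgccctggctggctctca

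H2-K1, H2-D1 and H2-Q7 held the 4 motifs in the same order, with the NF-kB core farthest from the start. In the same window of 27025 promoters, only these 3 held all 4 motifs. The first base of the NF-kB core lay 110 bases before the start in H2-K1, 170 in H2-D1 and 132 in H2-Q7, and that of the interferon response core lay 90, 150 and 113 bases before it. Over all promoters, 6.34% held the interferon response core, 34.5% a CCAAT box, 17.9% the half-site and 0.873% the NF-kB core. Of the 7 members, 3 held the interferon response core, 7 a CCAAT box, 5 the half-site and 3 the NF-kB core. Matches of different motifs did not overlap in these windows. H2-T23 and B2m held no interferon response core as spelled, but both held its GAA and GAAA parts with 3 bases between them, at 124 bases in H2-T23 and at 145 and 139 bases in B2m. This wider spacing was searched after the B2m sequence had been seen. With 2 or 3 bases allowed, 5 of the 7 members and 12.3% of all promoters held the motif. Among 12 other class I heavy chain genes with a promoter, 4 held the interferon response core as spelled and 7 held it with the wider spacing. The motifs are known from class I promoters, so nothing is read from H2-K1, H2-D1 and H2-Q7 alone holding all 4. A match describes letters only.

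**Figure D1:**
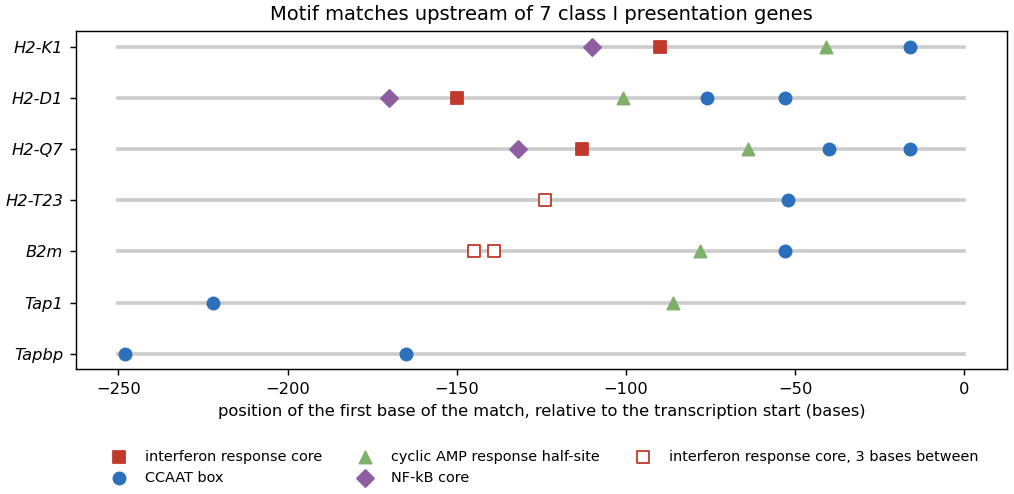
Motif matches in the 250 bases before the transcription start of 7 members, with distance from the start in bases on the horizontal axis and 1 row per gene. Symbols stand for the first base of a match to each motif, and open squares mark the interferon response core with 3 bases between its parts; H2-K1, H2-D1 and H2-Q7 share the order of the 4 motifs.

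Every member had a higher FPKM in each TgAPPsweOCN;Ai9 library than in any control library. Across all tested genes 24% were placed that way, and since the members were chosen with this difference known, nothing is read from the count. The same holds for the 6 members that passed the threshold for up-regulation and the 9 that passed at any fold. All 9 passed the filter on low counts, with counts in every library of both genotypes. The median log2 fold change of the members was 1.18. Tapbp, at 1.03, and H2-K1, at 0.92, lay just inside and just outside the fold threshold, and without control replicate 1 H2-K1 was at 1.02.

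H2-D1 and H2-K1 encode the classical heavy chains of C57BL/6 mice and were by far the most abundant heavy chains. H2-D1 measured 1232, 1067 and 1079 FPKM in control libraries and 1520, 1575 and 1534 FPKM in TgAPPsweOCN;Ai9 libraries. H2-K1 measured 631.14, 496.6 and 539.76 FPKM in control and 912.67, 910.34 and 904.65 FPKM in TgAPPsweOCN;Ai9 libraries. The genotypes did not overlap for either gene, and control replicate 1 was the highest control library for both. The log2 fold change was 0.67 (SE 0.0708) for H2-D1 and 0.92 (SE 0.0901) for H2-K1.

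H2-T23 encodes Qa-1, the heavy chain that shows signal peptides of other class I molecules to natural killer cell receptors. It measured 119.33, 71.73 and 85.55 FPKM in control libraries and 204.28, 239.6 and 222 FPKM in TgAPPsweOCN;Ai9 libraries. The mean went from 92.2 ± 24.5 to 222 ± 17.7 FPKM (SD, n = 3 each), and the log2 fold change was 1.48 (SE 0.165). H2-Q7 encodes Qa-2, a heavy chain that can be anchored to the membrane by a lipid. It was low in control libraries, at 2.36, 2.37 and 1.84 FPKM, and measured 23.36, 22.95 and 20.72 FPKM in TgAPPsweOCN;Ai9 libraries. These stood on 54.59, 53.51 and 44.66 estimated counts in control and 596.34, 575.31 and 505.93 in TgAPPsweOCN;Ai9 libraries. With a mean FPKM 10.2 times that of control and a log2 fold change of 3.50 (SE 0.115), H2-Q7 had the largest difference of the 9 members.

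B2m, the light chain shared by all of these heavy chains, was the most abundant member. It measured 3135, 2394 and 2563 FPKM in control and 5586, 5169 and 5039 FPKM in TgAPPsweOCN;Ai9 libraries, and the log2 fold change was 1.18 (SE 0.107). With scaling to library totals it was 0.96, below the fold threshold.

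Tap1 and Tap2 encode the subunits of the peptide transporter and differed in size of change. Tap1 measured 27.77, 20.01 and 22.19 FPKM in control and 54.19, 60.29 and 56.36 FPKM in TgAPPsweOCN;Ai9 libraries, with a log2 fold change of 1.50 (SE 0.112). Tap2 measured 35.11, 29.96 and 30.57 FPKM and 39.91, 39.01 and 41.24 FPKM, with a log2 fold change of 0.54 (SE 0.0745), the smallest of the members. The ratio of Tap1 to Tap2 FPKM was therefore below 1 in every control library (0.791, 0.668 and 0.726) and above 1 in every TgAPPsweOCN;Ai9 library (1.36, 1.55 and 1.37). Tapbp, which encodes tapasin, measured 130.44, 124.17 and 123.07 FPKM and 221.26, 211.65 and 231.29 FPKM. Its log2 fold change was 1.03 (SE 0.0617), and 0.81 with scaling to library totals. Nlrc5, the transactivator, measured 6.69, 5.34 and 6.2 FPKM in control and 11.21, 15.25 and 13.22 FPKM in TgAPPsweOCN;Ai9 libraries, a log2 fold change of 1.33 (SE 0.122).

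**Figure D2:**
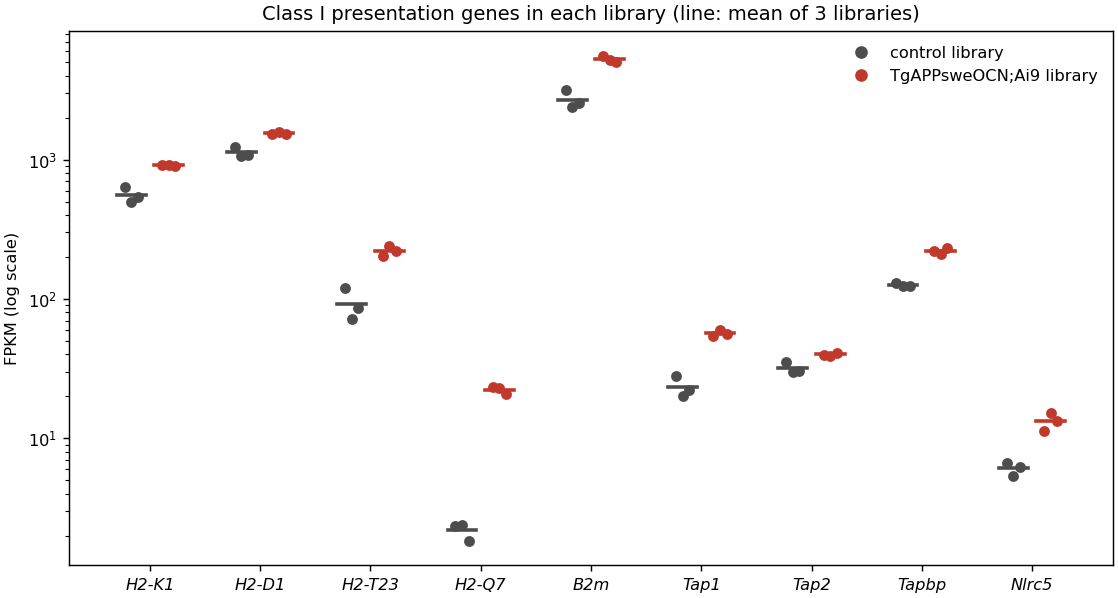
FPKM of the 9 members on a log axis in each of the 3 control (grey) and 3 TgAPPsweOCN;Ai9 (red) libraries, with 1 point per library and a line at each mean. All red points lie above all grey points of the same gene, with the widest gap for H2-Q7 and the narrowest for Tap2.

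Class I heavy chain genes are similar in sequence, and the authors' counts split reads between similar genes, which shows as counts that are not whole numbers. The counts of H2-K1, H2-D1, H2-T23 and H2-Q7 were fractional in all 6 libraries, and those of Tapbp in 2 libraries. B2m, Tap1, Tap2 and Nlrc5 had whole counts throughout. Thus 5 of the 9 members (55.6%) had a fractional count in some library, against 18.3% of all genes. Shared sequence was measured as the part of the longest protein-coding transcript whose 100-base windows also occur in transcripts of other genes (GENCODE M21). That part was 16.4% for H2-Q7, mostly shared with H2-Q6, 7.28% for H2-T23, 4.64% for H2-D1 and none of the windows of H2-K1. In 50-base windows it was 34.9% for H2-Q7, 28.8% for H2-T23, 14.3% for H2-D1 and 8.79% for H2-K1. H2-Q8 and H2-Q9, close copies of H2-Q7, had no entry in that transcript table, and H2-Q6 was not among the genes with counts here. The values of H2-Q7, H2-Q8 and H2-Q9 are therefore uncertain gene by gene. With all 22 heavy chain genes counted as 1 feature, the log2 fold change was 0.94 (SE 0.0813). H2-K1 and H2-D1 together held on average 88.5% of the summed heavy chain FPKM in control and 77.8% in TgAPPsweOCN;Ai9 libraries. The summed value therefore says little about H2-Q7, H2-Q8 or H2-Q9.

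Of the 11 other heavy chain genes with enough counts to be tested, 9 rose. Of 28 listed genes, 18 were in the table and 11 were tested, of which 8 were up-regulated and H2-M3 rose below the fold threshold. H2-Q1 (log2 fold change 0.58, adjusted p = 0.0606) and Gm11127 (-0.35, adjusted p = 0.245) did not pass. H2-Q1 passed when 10 counts were required in every library (adjusted p = 0.0464). Gm11127 passed with limma on log2(FPKM + 1) (adjusted p = 0.0354) and on log2(FPKM + 0.1) (adjusted p = 0.039). The median log2 fold change of the 11 genes was 1.76. H2-T24, a T-region heavy chain, had a log2 fold change of 3.05 (SE 0.126, adjusted p = 3.12e-07). It measured 16.57, 11.99 and 13.76 FPKM in control and 87.64, 108.29 and 101.86 FPKM in TgAPPsweOCN;Ai9 libraries. Its counts were fractional in 1 library and 3.24% of its 50-base windows were shared. H2-T22, a ligand of gamma-delta T cell receptors, measured 28.94, 21.88 and 25.48 FPKM and 150.73, 186.92 and 165.54 FPKM. It rose with a log2 fold change of 2.94 (SE 0.112, adjusted p = 2.14e-07), but 44.7% of its 50-base windows and 14.2% of its 100-base windows were shared, and the 100-base ones chiefly with H2-T10 (9.81%).

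H2-T10 rose from 5.29 to 15.4 FPKM on average (adjusted p = 1.57e-06) and H2-Q4 from 53.4 to 102 FPKM (adjusted p = 2.66e-05). H2-Q8 went from 1.67 to 26.1 FPKM (log2 fold change 4.17, adjusted p = 7.30e-07) and H2-Q9 from 1.23 to 9.92 FPKM (3.23, adjusted p = 5.27e-05). Without control replicate 1 the log2 fold change of H2-Q9 was 3.92. H2-M2, an M-region gene with whole counts, had 13, 3 and 11 counts in control and 95, 24 and 52 in TgAPPsweOCN;Ai9 libraries (log2 fold change 2.71, SE 0.607, adjusted p = 0.0042), and without TgAPPsweOCN replicate 1 the log2 fold change was 2.12. H2-M3, which presents bacterial N-formyl peptides and also had whole counts, rose less, from 18.8 to 23.3 FPKM (log2 fold change 0.52, adjusted p = 0.000356). Gm8909 rose with a log2 fold change of 1.02 (adjusted p = 0.00162), and was below the fold threshold without control replicate 2 (0.81) or TgAPPsweOCN replicate 2 (0.99). With scaling to library totals H2-Q4 (0.94) and Gm8909 (0.80) were below the fold threshold.

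**Figure D3:**
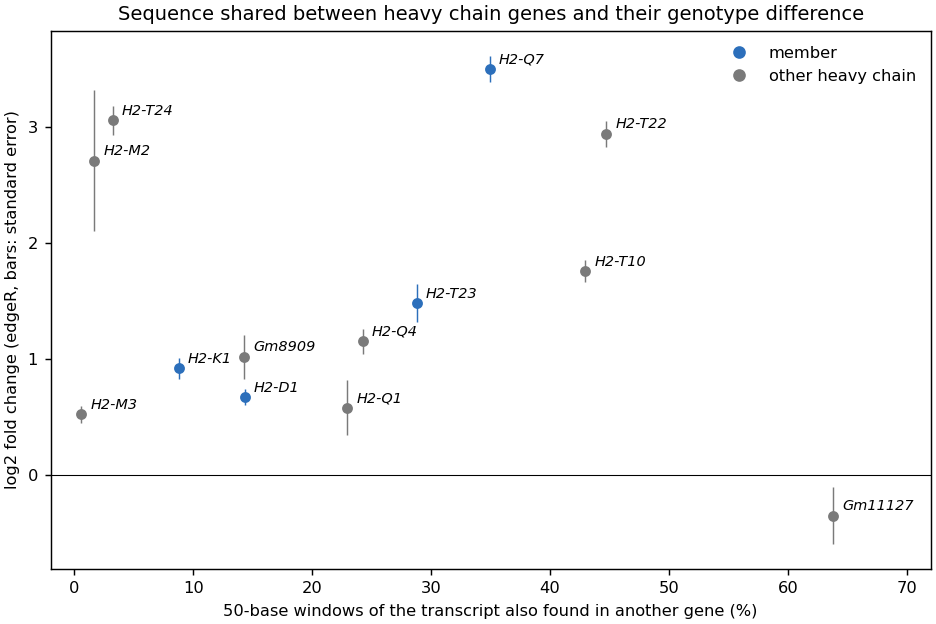
Log2 fold change (bars: standard error) of heavy chain genes against the percentage of 50-base windows of the transcript found also in another gene, with members in blue and other heavy chains in grey. H2-T24 and H2-M2 combine a large difference with little shared sequence, and H2-Q7 and H2-T22 a large difference with much shared sequence.

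The make-up of the heavy chain RNA shifted from classical to nonclassical genes. The 20 nonclassical genes held 12.5%, 10.6% and 11.5% of the summed heavy chain FPKM in control libraries and 20.9%, 23.3% and 22.3% in TgAPPsweOCN;Ai9 libraries, without overlap. Their summed FPKM was 3.16 times that of control, while that of H2-K1 and H2-D1 together was 1.46 times. H2-D1 accounted for the loss of share, from 59.3% ± 1.62 to 49.0% ± 0.416 (SD, n = 3 each), and H2-K1 stood at 29.2% ± 0.676 and 28.9% ± 0.795. H2-T22 went from 1.33% to 5.32%, H2-T24 from 0.739% to 3.15% and H2-T23 from 4.79% to 7.04%. The ratio of B2m to summed heavy chain FPKM was 1.47, 1.37 and 1.4 in control and 1.82, 1.60 and 1.61 in TgAPPsweOCN;Ai9 libraries. These shares depend on how reads were divided between similar genes, since only 4 of the 22 genes had whole counts in every library.

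**Figure D4:**
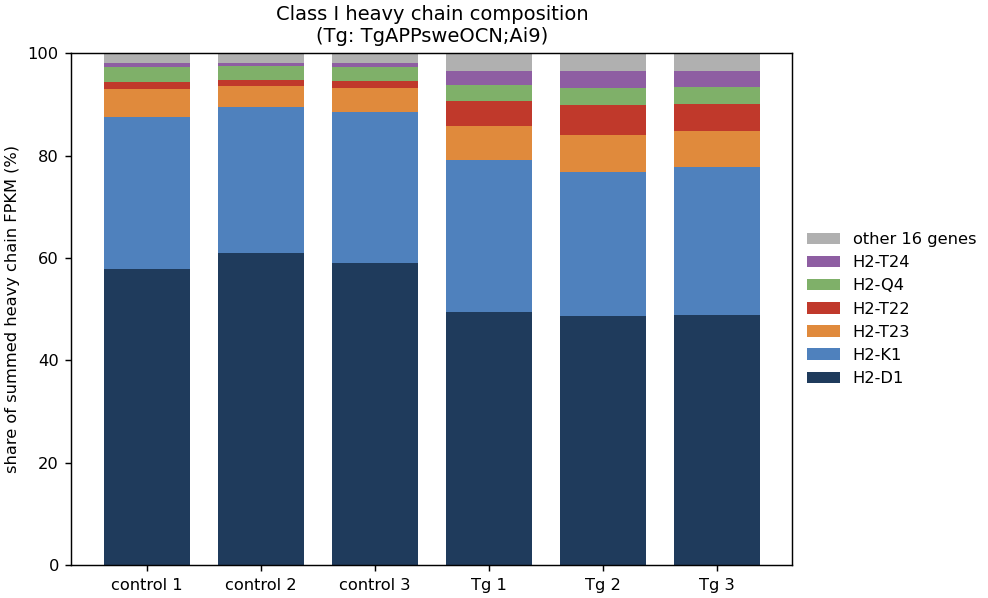
Share of the summed FPKM of 22 class I heavy chain genes (%) held by each named gene in every library, as stacked bars from 0 to 100%. H2-D1 takes a smaller share and H2-T22, H2-T24 and H2-T23 larger shares in the TgAPPsweOCN;Ai9 libraries (Tg) than in the control libraries.

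Other genes of the pathway moved in both directions. Over 8 lists of pathway genes with roles outside the members, 69 of 79 genes were tested, and 19 were up-regulated and 4 down-regulated. At any fold 37 rose and 18 fell, with a median log2 fold change of 0.25. The lists were chosen with results of these data known, so their counts are set only against the background shares given above.

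Among 11 genes that supply peptides in the cytosol, 2 were up-regulated and 7 more rose at a smaller fold. Psme2, a subunit of the PA28 proteasome activator, measured 121.18, 112.09 and 112.2 FPKM in control and 463.66, 384.38 and 405.93 FPKM in TgAPPsweOCN;Ai9 libraries (log2 fold change 2.07, adjusted p = 4.04e-07). Its partner Psme1 went from 137 to 146 FPKM (0.30, adjusted p = 0.0113). That rise was lost with scaling to library totals (0.09, adjusted p = 0.354) and without control replicate 3 (adjusted p = 0.0507). It was also lost with limma on log2(FPKM + 1) (adjusted p = 0.362) and on log2(FPKM + 0.1) (adjusted p = 0.398). The immunoproteasome subunits differed from each other. Psmb8 rose from 88.2 to 168 FPKM (log2 fold change 1.15, adjusted p = 3.65e-05), whereas Psmb9 stood at 42.9 and 43.1 FPKM (0.22, adjusted p = 0.114) and Psmb10 at 57.4 and 52.8 FPKM (0.09, adjusted p = 0.394). Psmb10 passed without control replicate 1 (0.18, adjusted p = 0.0295) and turned negative with scaling to library totals (-0.13). Psmb8 and Psmb9 were singled out after their values were seen. Psmb9 lies next to Tap1 on the opposite strand, and in GENCODE M21 their annotated 5′ ends overlap by 212 bases.

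Of 9 endoplasmic reticulum genes, 2 were up-regulated, 5 more rose and 1 fell. Canx, the chaperone of free heavy chains, rose from 96.2 to 171 FPKM (log2 fold change 1.04, adjusted p = 6.22e-06) and was below the fold threshold with scaling to library totals (0.83) and without control replicate 1 or TgAPPsweOCN replicate 1 (both 0.99). Calr (0.81, adjusted p = 8.70e-06) and Pdia3 (0.90, adjusted p = 3.84e-06), which act with tapasin in the loading complex, also rose. Tapbpl, a tapasin-like peptide editor, fell (-0.38, adjusted p = 0.00211). Among 5 class I-like genes, Procr rose (2.19, adjusted p = 6.39e-05) and the other 4 fell. Hfe, a regulator of iron uptake, fell from 98.1 to 28.2 FPKM (-1.54, adjusted p = 6.82e-07) and Fcgrt, the neonatal Fc receptor, from 108 to 51.2 FPKM (-0.86, adjusted p = 3.89e-05). Class I-like proteins pair with beta-2-microglobulin in the case of Hfe and Fcgrt and do not in the case of Procr.

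Of 13 transcription factors that act on class I promoters, 1 was up-regulated, 8 fell and 4 did not pass. Each of the falls was smaller than the fold threshold with TMM factors. Irf1, an interferon-induced activator, fell from 36.2 to 22.3 FPKM (-0.48, adjusted p = 0.000215) and Irf2 from 36.1 to 17.6 FPKM (-0.83, adjusted p = 2.58e-06). Of the RFX complex that binds class I and class II promoters, Rfxank fell (-0.92, adjusted p = 5.84e-05) and Rfx5 did not pass (-0.11, adjusted p = 0.231). With scaling to library totals Rfx5 passed (-0.32, adjusted p = 0.00464). It also passed with limma on log2(FPKM + 1) (-0.27, adjusted p = 0.00818) and on log2(FPKM + 0.1) (-0.31, adjusted p = 0.0111). Rela, an NF-kB subunit, fell slightly (-0.17, adjusted p = 0.0299), a call that was lost without control replicate 3 (adjusted p = 0.0628), TgAPPsweOCN replicate 1 (0.0607) or TgAPPsweOCN replicate 2 (0.109).

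Among 9 tested interferon signalling genes, 2 were up-regulated, 3 more rose, 1 was down-regulated and 2 fell less. Stat2 rose from 24.8 to 69.3 FPKM (log2 fold change 1.70, adjusted p = 5.69e-06). Receptor genes were split, since Ifngr1 fell from 114 to 46 FPKM (-1.10, adjusted p = 2.15e-05) and Ifnar2 from 171 to 92.9 FPKM (-0.79, adjusted p = 2.92e-06), while Ifngr2 had 142 and 151 FPKM (0.30, adjusted p = 0.00642). Without control replicate 1 Ifngr1 was at -0.996, just short of the fold threshold. The rise of Ifngr2 was lost with scaling to library totals (0.09, adjusted p = 0.266). It was also lost with limma on log2(FPKM + 1) (adjusted p = 0.319) and on log2(FPKM + 0.1) (adjusted p = 0.352). The interferon genes themselves were too low to be tested, and both are named after their values were seen. Ifnb1 had 0 counts in each control library against 8, 8 and 7 in TgAPPsweOCN;Ai9 ones, at least 2.29-fold higher against a floor of 3 counts per library. Ifng had 4 counts in 1 TgAPPsweOCN;Ai9 library and 0 in the other 5 libraries.

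Among 5 cross-presentation genes, Rac2 rose from 120 to 843 FPKM (log2 fold change 3.03, adjusted p = 6.63e-08) and Cybb from 150 to 285 FPKM (1.14, adjusted p = 0.000352), and Rab27a did not pass (-0.86, adjusted p = 0.112) except without TgAPPsweOCN replicate 2 (-1.50, adjusted p = 0.0075) and with limma on log2(FPKM + 1) (-0.40, adjusted p = 0.0276). Cybb was below the fold threshold without TgAPPsweOCN replicate 1 (0.94) and with scaling to library totals (0.92). Of 6 tested receptors that bind class I molecules or belong to the families that do, Klra2, of the Ly49 family, rose from 3.51 to 36.2 FPKM (3.55, adjusted p = 2.14e-07) and Pirb from 168 to 256 FPKM (0.82, adjusted p = 2.72e-06). Lilr4b (-1.49, adjusted p = 8.80e-07) and Lilrb4a (-1.09, adjusted p = 4.23e-06), gp49 receptors whose known ligands are not class I molecules, fell.

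**Figure D5:**
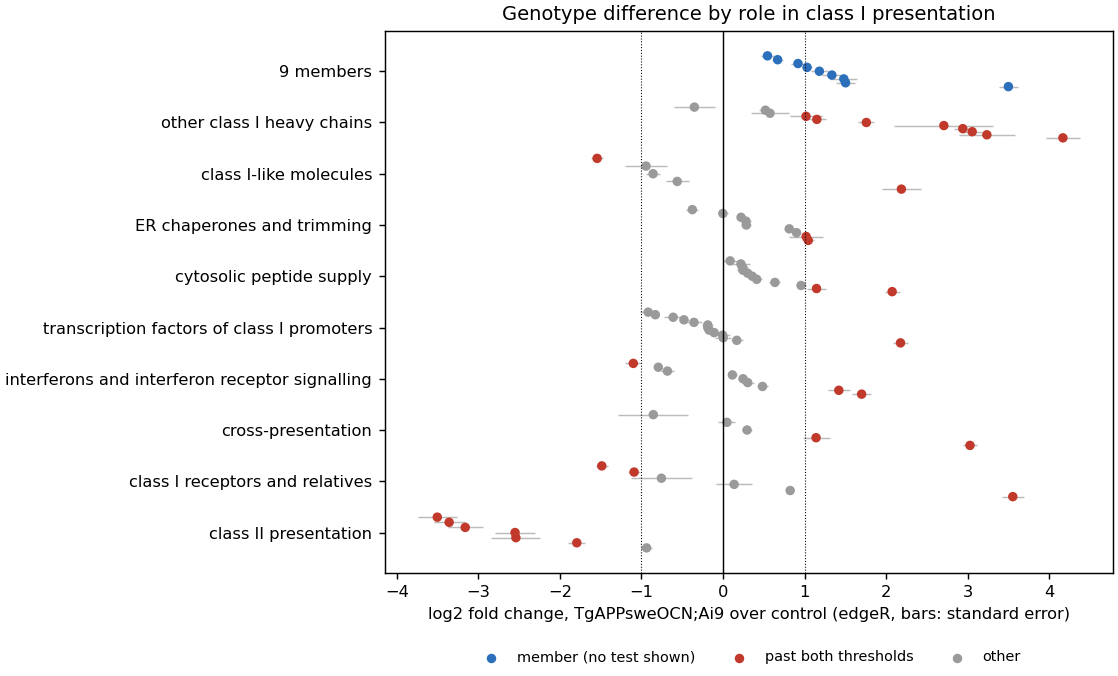
Log2 fold change of TgAPPsweOCN;Ai9 over control (bars: standard error) for the tested genes of each role, with 1 point per gene, members in blue, genes past both thresholds in red and others in grey; dotted lines mark the fold threshold. Members and most other heavy chains lie to the right of 0, and all 7 class II genes lie to the left.

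Class II presentation moved the other way. All 7 class II genes tested fell, 6 of them past the fold threshold, with a median log2 fold change of -2.55. Ciita, the class II transactivator and a relative of Nlrc5, measured 2.65, 3.6 and 3.19 FPKM in control and 0.26, 0.19 and 0.32 FPKM in TgAPPsweOCN;Ai9 libraries (-3.36, adjusted p = 1.58e-06). H2-Ab1 fell from 226 to 33.3 FPKM (-2.54, adjusted p = 0.000107), H2-Eb1 from 84.1 to 6.36 FPKM (-3.50, adjusted p = 4.35e-06) and H2-DMb1 from 50.8 to 22.8 FPKM (-0.94, adjusted p = 7.94e-06). Cd74, the invariant chain, also fell (-2.55, adjusted p = 2.88e-05). Dendritic cell markers, of cells rich in class II, summed to 34.43 to 50.64 FPKM in control and 21.08 to 32.14 FPKM in TgAPPsweOCN;Ai9 libraries, with Cd209a under 3 counts in all 6 libraries. The markers of that list did not move together, and their median per library was 0.11 to 0.15 FPKM in control and 0.165 to 0.245 FPKM in TgAPPsweOCN;Ai9 libraries. Of the 5 tested, Clec10a fell (-2.06, adjusted p = 0.000169), Batf3 (2.58, adjusted p = 1.06e-05) and Xcr1 (1.88, adjusted p = 0.000133) rose, and Itgax (-0.97, adjusted p = 0.0507) and Zbtb46 (0.05, adjusted p = 0.936) did not pass. T and natural killer cell markers, of cells rich in class I, summed to 3.59 to 4.44 FPKM and 1.08 to 2.52 FPKM, with Cd3d, Cd3e, Cd2 and Eomes under 3 counts in every library. Of the 2 tested, Cd4 fell (-1.31, adjusted p = 0.00717) and Cd5 rose (1.47, adjusted p = 0.0204). B cell markers summed to 1.99 to 3.01 FPKM and 4.07 to 4.73 FPKM, with Cd79a under 3 counts in every library. Of the 2 tested, Cd79b rose (1.75, adjusted p = 0.000127) and Ebf1 did not pass (-0.54, adjusted p = 0.154). The markers named here were singled out after their values were seen, and the part of these cell types in the results was not tested.

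The genes whose log2 CPM followed the members' mean most closely over the 6 libraries were Rasa4, Limd2, Utp11, Usp18 and Tnfrsf14, with Pearson's r of 0.9995 to 0.9998. Rasa4, which had the highest r, measured 97.27, 84.94 and 87.41 FPKM in control and 127.16, 131.76 and 129.65 FPKM in TgAPPsweOCN;Ai9 libraries. Usp18, an interferon-induced protease that removes ISG15, measured 9.07, 4.86 and 6.13 FPKM in control and 113.94, 127.44 and 115.73 FPKM in TgAPPsweOCN;Ai9 libraries. Over the 11851 genes compared, 25.5% had an r above 0.9, and all share the same 2 genotypes and libraries.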

How the data were processed

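Total RNA of tdTomato+ cells was sequenced on a DNBSEQ platform. The authors deposited estimated counts and FPKM for each library, scaled by gene length and mapped fragments. Per the submitters' processing notes, HISAT2 2.0.4, Bowtie2 2.2.5, RSEM 1.2.12 and DESeq2 1.4.5 were used with the mm10 build. A second deposited table of genotype ratios and p-values was not used. Estimated counts, 13.3% to 14.4% of them fractional per library (tolerance 0.001), were rounded, although raw counts had been planned for. Genotypes were compared with edgeR 4.0.16 in R 4.3.3 (quasi-likelihood test after filterByExpr and TMM normalization, Benjamini-Hochberg adjustment) without a replicate block. The biological coefficient of variation was 9.85%, and the procedure was tested on simulated data. The members, gene lists and motifs were chosen with earlier results of these data known. Named genes were the members, tested heavy chains, the extremes and most abundant genes of each list, and fixed regulators. Some genes under this rule are not reported here. Alternatives were DESeq2 1.42.0, RLE factors, library size only, 2 other filters, a replicate block, limma 3.58.1 on log2(FPKM + 1) or log2(FPKM + 0.1), summed heavy chains, no fold threshold and leaving out each library.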

Additional observations from a re-analysis of the deposited data

How the results depend on the processing

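The 9 members stayed higher in TgAPPsweOCN;Ai9 libraries under every alternative in which they were fitted, with log2 fold changes of 2.87 to 3.57 for H2-Q7, 0.70 to 1.02 for H2-K1 and 0.32 to 0.61 for Tap2. Between 6 and 7 members passed the fold threshold when 1 library was left out, and 4 with library size only or with either FPKM pseudocount. With heavy chains summed 4 also passed, but that setting merges the heavy chain members into 1 feature. Of 632 values of the 43 named genes outside the members, 610 kept their direction and their side of an adjusted p of 0.05. Some of these crossed the fold threshold. With library size only, H2-Q4, Gm8909, Canx and Cybb dropped below it, and Fcgrt, Rfxank, Irf2, Ifnar2 and H2-DMb1 passed it downward. Psmb10 turned negative with library size only (-0.13) and with limma at pseudocounts of 1 (-0.11) and 0.1 (-0.12), settings in which the median of all genes was also lower. Down-regulated pathway genes numbered 9 with library size only and 8 with limma at a pseudocount of 0.1, against 4, and up-regulated ones 13 in these settings and with limma at a pseudocount of 1, against 19. Up-regulated pathway genes numbered 11 with heavy chains summed, since that setting merges them. Over all genes 593 were up-regulated with limma at a pseudocount of 1. Without a fold threshold 4122 rose and 4007 fell, with 37 and 18 among pathway genes. Leaving out 1 library gave 17 to 19 up-regulated and 4 to 5 down-regulated pathway genes. Only 4 heavy chain genes, all nonclassical, had whole counts, so the planned restriction to such genes gave no share. With H2-K1 and H2-D1 kept beside those 4, the nonclassical share was 1.13% in control and 1.02% in TgAPPsweOCN;Ai9 libraries. This setting leaves out H2-T22, H2-T23 and H2-T24 by construction and does not test the shift in make-up. With the replicate block, 1115 genes passed upward and 1147 downward, among them 6 members and 19 pathway genes upward. Same-numbered libraries correlated at 0.0127, 0.00664 and 0.141 in their deviations, so the numbers were not taken to pair them. Depth limits the interferon genes, with 0 to 8 counts per library.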
